A study of Mus musculus with 24 samples.

Results

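The genes of the myosin light chains and of the kinases that phosphorylate them were followed in mouse fibroblasts reprogrammed towards cardiac muscle. The members were the 10 genes whose symbols in the deposited count table read Myl7, Myl4, Myl2, Myl3, Myl1, Mylpf, Myl9, Myl6, Mylk and Mylk3, of 47967 genes in the table. RNA was sequenced from mouse embryonic fibroblasts (MEFs) of C57BL/6 embryos at embryonic day 13.5 to 14.5, harvested 7 or 2 days after retroviral transduction with AGHMT, GHMT or GMT, or after mock treatment. Each of the 8 groups held 3 libraries, 24 in all. The letters of such cocktails usually stand for Akt1, Gata4, Hand2, Mef2c and Tbx5, so that GHMT differs from GMT by Hand2 and AGHMT from GHMT by Akt1, although the labels do not spell them out. The labels give induction medium to infected cells, and they do not say whether mock cells received that medium or an empty virus. Replicates are numbered in the labels, with no word on separate cultures or batches, so the p-values reflect only how far libraries of a group differ, and that spread may be technical. In bulk RNA, fewer cells of a type and less RNA per cell cannot be told apart.

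Each myosin II heavy chain carries an essential and a regulatory light chain on its neck, which stiffen the lever arm and set how the motor is switched on. Different muscles use different light chain genes: Myl7 (regulatory) and Myl4 (essential) serve the atria and the early embryonic heart, Myl2 and Myl3 the ventricles, Mylpf and Myl1 fast skeletal fibres, and Myl9 and Myl6 smooth muscle and non-muscle cells. Dedicated kinases phosphorylate the regulatory chain, which starts contraction in smooth muscle and raises force in striated muscle, with Mylk in smooth muscle and many other cells and Mylk3 in cardiomyocytes.

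Library totals ran from 29345957 to 37495178 counts. Levels are CPM, counts scaled to a common library size with TMM factors, n is 3 libraries a group throughout, and a gene was called where edgeR's quasi-likelihood test gave a Benjamini-Hochberg adjusted p under 0.05 over 17576 tested genes. Hand2 stood at 1125 ± 10.9 CPM in AGHMT, 978 ± 42.1 CPM in GHMT, 3.23 ± 0.20 CPM in GMT and 7.58 ± 0.41 CPM in mock at day 7 (SD, n = 3 each), as the labels have it, and the counts do not separate endogenous from viral transcripts. Akt1 was 451 ± 7.2 CPM in AGHMT against 382 ± 1.72 CPM in GHMT at day 7. The 12 fibroblast markers summed to 13485 to 20354 CPM in the 3 cocktails at day 7, against 74518 to 80707 CPM in mock at day 7 and 46280 to 50268 CPM in mock at day 2. The 11 macrophage markers summed to 41.8 to 67.2 CPM in the cocktails at day 7 and 377 to 548 CPM in mock at day 7, against 14.1 to 54.5 CPM in all groups at day 2. Whether those cells contribute to any day 7 value below was not tested. AGHMT replicate 3 at day 2 lay furthest of all libraries from its group.

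The promoters of 4 members are shown because these genes went different ways. Myl7 and Myl4 rose from near 0 in every cocktail, Myl9 differed between cocktails and Myl3 stayed near 0. All 10 members matched RefSeq's promoter table by symbol. The sequences are RefSeq's, from GRCm38.p6, and run 5′ to 3′ on the gene's strand. Each ends before its first base that GENCODE places in an exon of the gene. The Myl3 stretch lies inside the annotated gene, which begins at 110741861, and its RefSeq start is 32 bp from the nearest GENCODE transcript start. Capitals mark CArG boxes, the binding motif of serum response factor, and the letters GATAA on either strand, read by GATA factors.
Myl7, chr11:5898783-5899032, minus strand: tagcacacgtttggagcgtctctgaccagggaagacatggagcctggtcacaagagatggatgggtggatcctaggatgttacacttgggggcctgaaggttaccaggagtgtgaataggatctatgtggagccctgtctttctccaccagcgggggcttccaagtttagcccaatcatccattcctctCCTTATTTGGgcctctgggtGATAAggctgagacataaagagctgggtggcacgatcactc
Myl4, chr11:104550413-104550662, plus strand: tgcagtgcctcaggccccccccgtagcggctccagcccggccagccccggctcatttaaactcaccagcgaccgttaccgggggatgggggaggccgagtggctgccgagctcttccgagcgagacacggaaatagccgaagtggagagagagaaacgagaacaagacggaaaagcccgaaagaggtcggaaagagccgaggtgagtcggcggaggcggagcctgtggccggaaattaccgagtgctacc
Myl9, chr2:156775214-156775419, plus strand: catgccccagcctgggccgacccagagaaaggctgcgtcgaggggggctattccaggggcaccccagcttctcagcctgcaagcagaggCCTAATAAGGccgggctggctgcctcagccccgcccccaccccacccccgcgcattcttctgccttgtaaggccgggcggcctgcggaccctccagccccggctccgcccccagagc
Myl3, chr9:110763428-110763645, plus strand: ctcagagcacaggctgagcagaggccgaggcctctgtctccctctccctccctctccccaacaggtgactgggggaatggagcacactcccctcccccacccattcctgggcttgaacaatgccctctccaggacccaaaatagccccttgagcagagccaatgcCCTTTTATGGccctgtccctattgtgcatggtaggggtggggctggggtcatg
Between the CArG box and the RefSeq start lay 51 bases in Myl7, 151 in Myl9 and 75 in Myl3. In Myl7 the letters GATAA followed the CArG box, with 36 bases between them and the start. In Myl3 they had 13 bases between them and the RefSeq start, past the end of the printed stretch. The Myl4 window held neither. Over 32851 RefSeq promoters, with 250 bases upstream searched on both strands, a CArG box was in 1.47% and GATAA in 22.6%. The RefSeq starts of the Myl2 windows lay 8227 and 7762 bp from the nearest GENCODE start, and the windows of Myl1 and Myl6 began within annotated exons of the same gene. With these windows included, the MEF2 motif, in 2.92% of all promoters, and the T-box letters AGGTGT, in 11.8%, had no match in any of the 13 windows of the 10 members. These are matches of letters and do not show binding.

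The atrial pair was near 0 in mock and rose in every cocktail, most in GMT. At day 7 Myl7 (ENSMUSG00000020469, chromosome 11, 5896637-5898782, GRCm38) had 1119, 1055 and 1042 CPM in AGHMT, 946, 991 and 883 CPM in GHMT and 1599, 1597 and 1582 CPM in GMT, against 0.0591, 0.0905 and 0.0951 CPM in mock. At day 2 it had 480, 461 and 646 CPM in AGHMT, 626, 635 and 658 CPM in GHMT and 715, 715 and 744 CPM in GMT, against 0.146, 0.190 and 0.180 CPM in mock. No cocktail library came near any mock library, in which Myl7 had 2 to 7 counts. The log2 fold change against mock at day 7 was 13.62 ± 0.17 in AGHMT, 13.43 ± 0.17 in GHMT and 14.20 ± 0.17 in GMT (SE; edgeR, adjusted p = 1.87e-27, 3.45e-27 and 1.74e-27). Since mock at day 7 held 8 Myl7 counts in all, the ratio of summed counts, scaled for library size, was 13201 for AGHMT with a 95% interval of 6699 to 30578, 11620 (5897 to 26916) for GHMT and 19615 (9955 to 45434) for GMT. These intervals cover counting error only.

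Myl4 (chromosome 11, 104550663-104595753), the atrial essential chain, was also near 0 in mock and high in each cocktail. At day 7 it had 2371, 2302 and 2320 CPM in AGHMT, 1668, 1772 and 1618 CPM in GHMT and 2765, 2932 and 2754 CPM in GMT, against 3.58, 3.26 and 2.95 CPM in mock. The day 2 values were 635, 584 and 868 CPM in AGHMT, 553, 535 and 597 CPM in GHMT and 951, 923 and 906 CPM in GMT, against 1.87, 2.73 and 2.45 CPM in mock. Every cocktail library was above every mock library, and at day 7 the 3 cocktails did not overlap each other. Against mock at day 7 the log2 fold change was 9.48 ± 0.14 in AGHMT, 9.01 ± 0.14 in GHMT and 9.75 ± 0.14 in GMT (edgeR, adjusted p = 5.04e-26, 1.31e-25 and 4.72e-26).

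GMT gave more of both atrial chains than the larger cocktails at day 7. In GHMT against GMT, Myl7 was lower by a log2 difference of -0.76 ± 0.08 (edgeR, adjusted p = 8.89e-09) and Myl4 of -0.74 ± 0.09 (adjusted p = 2.82e-07). At day 2 the same comparison gave -0.72 ± 0.09 for Myl4 (edgeR, adjusted p = 3.64e-07) and -0.18 ± 0.08 for Myl7, which missed the threshold (adjusted p = 0.0576). It was called lower with RLE factors, library totals, no filter, the compared groups alone or without the 3 furthest libraries (-0.30 to -0.18, edgeR, adjusted p = 0.00017 to 0.0494). In AGHMT against GHMT at day 7, Myl4 rose by 0.47 ± 0.09 (edgeR, adjusted p = 0.000124) and Myl7 by 0.19 ± 0.08 (adjusted p = 0.0416). That Myl7 call was lost without any one of AGHMT replicates 1, 2 and 3 and GHMT replicates 1 and 3 (0.14 to 0.21, edgeR, lowest adjusted p = 0.0535) and in DESeq2 (adjusted p = 0.0761). At day 2 AGHMT against GHMT gave 0.31 ± 0.09 for Myl4 (edgeR, adjusted p = 0.00607) and -0.27 ± 0.08 for Myl7 (adjusted p = 0.00387). Without AGHMT replicate 3 at day 2 the Myl4 difference was 0.12 and no longer called (edgeR, adjusted p = 0.0599). Fitted on the compared groups alone, neither day 2 difference was called (edgeR, adjusted p = 0.0967 for Myl4 and 0.107 for Myl7).

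**Figure D1:**
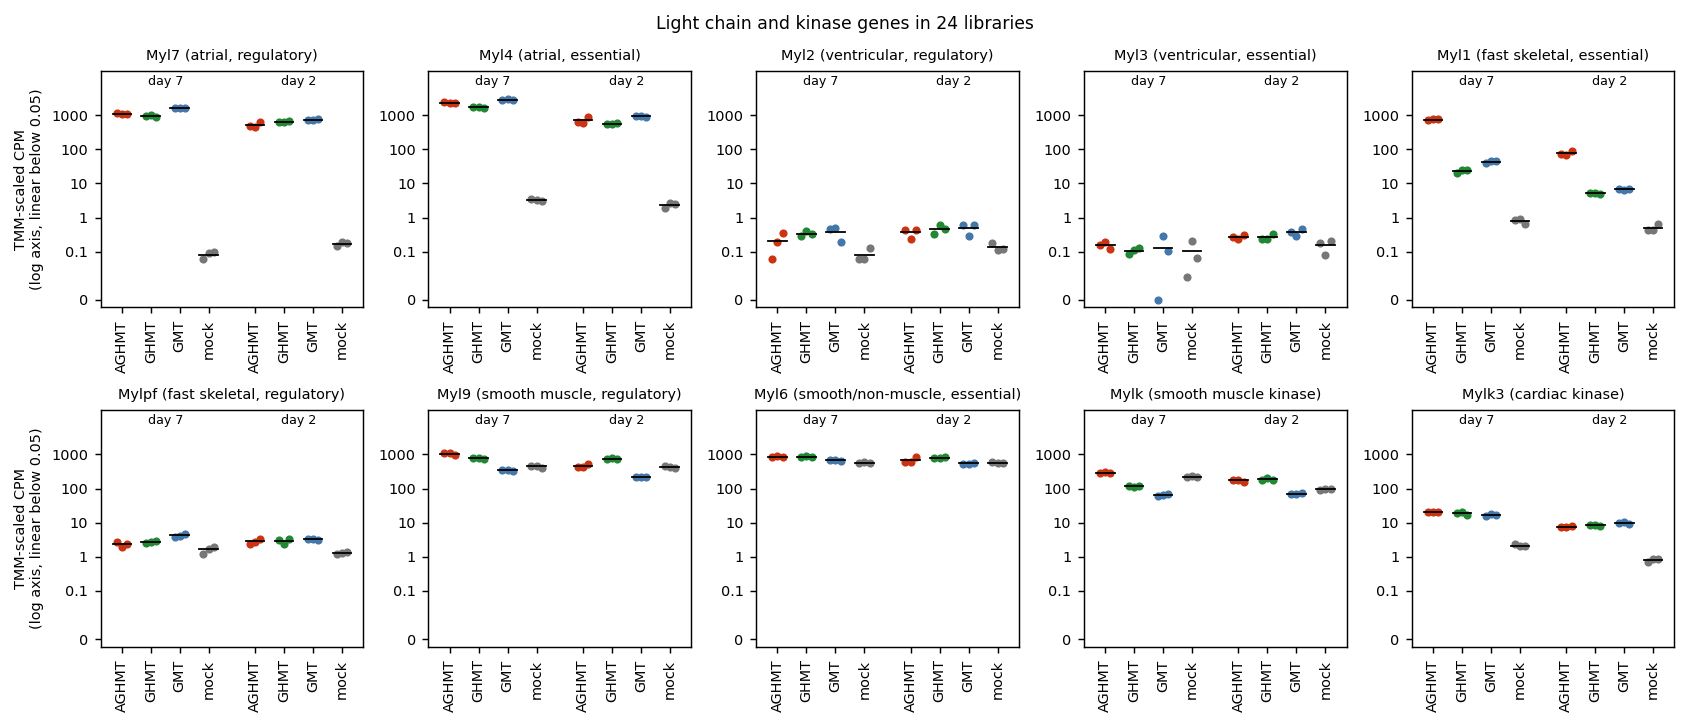
CPM of each of the 10 members in every library (points) with the group mean (line), on a log axis that is linear below 0.05, with AGHMT, GHMT, GMT and mock at day 7 on the left of each panel and at day 2 on the right. Myl7 and Myl4 are above 400 CPM in every cocktail library, Myl2 and Myl3 are below 0.6 CPM in all libraries, and Myl1 is highest in AGHMT at day 7.

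The ventricular pair stayed at the edge of detection in every group. Myl2 (chromosome 5, 122100951-122113472) had 2 to 23 counts and Myl3 (chromosome 9, 110741861-110769798) 0 to 16 counts per library. At day 7 Myl2 had 0.0629, 0.196 and 0.357 CPM in AGHMT, 0.280, 0.408 and 0.328 CPM in GHMT and 0.475, 0.485 and 0.188 CPM in GMT, against 0.0591, 0.0603 and 0.127 CPM in mock. AGHMT overlapped mock, while GHMT and GMT did not. Myl2 was called higher than mock in GHMT (log2 fold change 2.02 ± 0.58, edgeR, adjusted p = 0.00317) and GMT (2.17 ± 0.56, adjusted p = 0.0013) at day 7, and AGHMT missed the threshold (1.32 ± 0.65, adjusted p = 0.0694). Without AGHMT replicate 1 the AGHMT value became 1.74 and was called (edgeR, adjusted p = 0.0148). All 3 cocktails were called at day 2, at 1.46 ± 0.50, 1.77 ± 0.49 and 1.85 ± 0.46 in AGHMT, GHMT and GMT (edgeR, adjusted p = 0.0105, 0.00242 and 0.00112). Summed counts at day 7 were 20, 35 and 40 in AGHMT, GHMT and GMT, against 8 in mock.

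Myl3 at day 7 summed to 15 counts in AGHMT, 11 in GHMT and 14 in GMT, against 10 in mock, and no cocktail was called. GMT replicate 1 held none of its reads, which allows up to 3 counts. Its one call against mock was GMT at day 2, with 41 counts against 16 (log2 fold change 1.29 ± 0.48, edgeR, adjusted p = 0.0213). That call was lost without GMT replicate 3 (1.12, adjusted p = 0.0789), without mock replicate 2 (0.97, adjusted p = 0.109) and in DESeq2 (adjusted p = 0.0528). Annotated exons of Myl2 and Myl3 overlap opposite-strand genes, Ccdc63 by 60 bp and Pth1r by 95 bp, and the strand setting of the counting is not given in the sources used here.

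Of 5 ventricular markers 3 were tested. Against mock at day 7, 3 were called higher and 0 lower in AGHMT, and 2 higher and 1 lower in GHMT and in GMT. Hey2, a ventricular transcription factor and the marker called lower in GHMT and GMT, averaged 4.90 ± 0.33 CPM in AGHMT, 2.16 ± 0.46 CPM in GHMT and 1.10 ± 0.18 CPM in GMT at day 7, against 3.46 ± 0.19 CPM in mock. Irx4, another such factor, had 0 counts in every library of 6 of the 8 groups and was at most 0.0316 CPM on average in the others. Myh7, the slow and fetal ventricular heavy chain, averaged 10.4 ± 0.85 CPM in AGHMT, 2.52 ± 0.11 CPM in GHMT and 0.532 ± 0.24 CPM in GMT at day 7, against 0.189 ± 0.17 CPM in mock. Of 7 atrial markers, 5 rose and 2 fell against mock in each cocktail at day 7, with a median log2 fold change of 8.40 in AGHMT, 6.53 in GHMT and 7.95 in GMT, while the median over all genes was within 0.0118 of 0. Nppa, the atrial natriuretic peptide, was 124 ± 9.38 CPM in AGHMT, 461 ± 37.1 CPM in GHMT and 590 ± 39.6 CPM in GMT, against 0.362 ± 0.18 CPM in mock at day 7. The genes that fell were Nr2f1 and Nr2f2, nuclear receptors of atrial identity that other mesenchymal cells also express, named here after their values were seen.

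The ratio of an atrial to a ventricular form within a library needs no scaling. The mean log2 ratio of Myl7 to Myl2 counts at day 7 was 12.37 ± 1.08 in AGHMT, 11.33 ± 0.23 in GHMT and 12.03 ± 0.71 in GMT (SD, n = 3, pseudocount 1). That of Myl4 to Myl3 was 13.61 ± 0.32, 13.60 ± 0.30 and 14.67 ± 1.69 in the same groups. The test used could not call a difference between cocktails at 0.05, whatever the values. Libraries of the compared groups did not overlap for Myl7 to Myl2 in GHMT against GMT at day 7 (-0.69). Nor did they for Myl4 to Myl3 in AGHMT against GHMT at day 2 (0.29), and the other comparisons overlapped. Exact two-sided permutation tests of AGHMT against GHMT and GHMT against GMT at each day gave p = 0.1 to 0.9 (8 tests, Benjamini-Hochberg adjusted p = 0.4 to 0.9), and 0.1 is the smallest p that 3 against 3 libraries allow.

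Of the fast skeletal pair, the essential chain Myl1 stood apart in AGHMT. At day 7 Myl1 (chromosome 1, 66924295-66945404) had 701, 772 and 748 CPM in AGHMT, 19.6, 24.3 and 25.4 CPM in GHMT and 40.4, 44.1 and 43.7 CPM in GMT, against 0.827, 0.905 and 0.666 CPM in mock. Day 2 gave 72.1, 69.1 and 90.8 CPM in AGHMT, 5.12, 5.40 and 5.00 CPM in GHMT and 6.74, 6.40 and 6.83 CPM in GMT, against 0.437, 0.433 and 0.628 CPM in mock. None of the 8 groups overlapped its neighbour in the order of levels, from mock at day 2, mock at day 7, GHMT and GMT at day 2, GHMT and GMT at day 7, to AGHMT at day 2 and AGHMT at day 7. AGHMT exceeded GHMT by a log2 fold change of 5.01 ± 0.09 at day 7 and 3.90 ± 0.11 at day 2 (edgeR, adjusted p = 5.98e-22 and 2e-19), and the difference between these, 1.10 ± 0.14, was itself called (edgeR, adjusted p = 2.16e-06). GHMT was below GMT, by -0.89 ± 0.09 at day 7 (edgeR, adjusted p = 6.16e-09) and -0.36 ± 0.13 at day 2 (adjusted p = 0.0221). The day 2 call was lost without GHMT replicate 1 or 3 or GMT replicate 1 or 3 (-0.36 to -0.34, adjusted p = 0.0535 to 0.0678).

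Mylpf (chromosome 7, 127208890-127214298), the fast skeletal regulatory chain, did not follow Myl1. At day 7 it had 2.74, 1.96 and 2.44 CPM in AGHMT, 2.47, 2.77 and 2.82 CPM in GHMT and 3.83, 4.14 and 4.70 CPM in GMT, against 1.24, 1.69 and 2.00 CPM in mock. GMT lay above all other groups, and AGHMT overlapped mock. The log2 fold change against mock was 0.54 ± 0.18 in AGHMT, 0.71 ± 0.17 in GHMT and 1.37 ± 0.16 in GMT (edgeR, adjusted p = 0.0085, 0.000754 and 3.64e-08). The AGHMT call was lost without AGHMT replicate 1 (0.43, adjusted p = 0.055) or mock replicate 1 (0.36, adjusted p = 0.0829). At day 2 Mylpf was called higher than mock in every cocktail, by 1.14 in AGHMT, 1.21 in GHMT and 1.33 in GMT. These calls held with any 1 library left out (edgeR, adjusted p at most 4.09e-05). AGHMT against GHMT at day 7 gave -0.17 ± 0.16 for Mylpf (edgeR, adjusted p = 0.413), where Myl1 gave 5.01.

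Of 13 skeletal muscle markers, 6 had enough counts to test. In AGHMT against mock at day 7, 3 were called higher and 1 lower. Tnnt3, fast troponin T, averaged 89.1 ± 1.41 CPM in AGHMT, 25.3 ± 1.47 CPM in GHMT and 2.49 ± 0.09 CPM in GMT, against 0.844 ± 0.15 CPM in mock. Actn3, the fast-fibre actinin, averaged 22.1 ± 0.90, 17.2 ± 1.32 and 11.2 ± 0.16 CPM in AGHMT, GHMT and GMT, against 3.34 ± 0.36 CPM in mock. All 13 markers together summed to 112 to 114 CPM in the AGHMT libraries at day 7, so Tnnt3 and Actn3 made up most of that sum. Tnnc2, fast troponin C, had 0 counts in AGHMT, GHMT, GMT and mock at day 7, and Ckm had 0 counts in mock at day 7. Chrna1, a muscle acetylcholine receptor subunit, rose by 1.10 ± 0.25 in AGHMT (edgeR, adjusted p = 0.000572), and Pax3, a muscle precursor factor, fell (-0.59 ± 0.21, edgeR, adjusted p = 0.0142). The skeletal master regulators stayed near 0: Myf5 had 0 counts in all libraries, Myod1 and Myf6 at most 3, Pax7 at most 4 and Myog at most 14 counts in a library.

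The smooth muscle regulatory chain Myl9 (chromosome 2, 156775420-156781658) was lower than mock in GMT and higher in GHMT at both days, and higher in AGHMT at day 7. At day 7 it had 1066, 1068 and 971 CPM in AGHMT, 777, 794 and 742 CPM in GHMT and 356, 344 and 328 CPM in GMT, against 468, 466 and 412 CPM in mock. At day 2 it had 426, 419 and 505 CPM in AGHMT, 727, 760 and 757 CPM in GHMT and 218, 219 and 216 CPM in GMT, against 458, 428 and 410 CPM in mock. The day 7 groups did not overlap, while at day 2 AGHMT overlapped mock. Against mock at day 7 the log2 fold change was 1.21 ± 0.06 in AGHMT, 0.78 ± 0.06 in GHMT and -0.39 ± 0.06 in GMT (edgeR, adjusted p = 5.74e-15, 3.6e-11 and 5.28e-06). At day 2 it was 0.06 ± 0.06 in AGHMT, 0.79 ± 0.06 in GHMT and -0.99 ± 0.06 in GMT (edgeR, adjusted p = 0.399, 3.22e-11 and 5.25e-13). GHMT exceeded GMT by 1.17 ± 0.06 at day 7 and 1.78 ± 0.06 at day 2 (edgeR, adjusted p = 7.38e-14 and 2.08e-17). AGHMT stood above GHMT at day 7 (0.42 ± 0.06, adjusted p = 3.15e-06) and below it at day 2 (-0.73 ± 0.06, adjusted p = 3.77e-10).

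The 11 smooth muscle markers moved with Myl9 between GHMT and GMT. In that comparison 9 rose and 0 fell at day 7 (median log2 fold change 0.49), and 11 rose at day 2 (median 1.03), with the median over all genes at 0.00 at either day. Myh11, the smooth muscle heavy chain, averaged 433 ± 29.7 CPM in AGHMT, 317 ± 22.1 CPM in GHMT and 67.7 ± 1.24 CPM in GMT, against 142 ± 6.29 CPM in mock at day 7. Myocd, the smooth and cardiac muscle coactivator of serum response factor, averaged 84.9 ± 1.14, 82.5 ± 8.20 and 28.7 ± 1.19 CPM in AGHMT, GHMT and GMT, against 3.24 ± 0.35 CPM in mock. Against mock at day 7 the list was mixed, with 6 higher and 5 lower in AGHMT, 4 and 4 in GHMT and 2 and 9 in GMT. In GHMT against mock at day 2, 3 markers rose and 7 fell (median log2 fold change -0.57), where Myl9 rose by 0.79. AGHMT against GHMT gave 5 higher and 4 lower at day 7 (median 0.10), where Myl9 rose by 0.42. At day 2 that comparison gave 1 higher and 10 lower (median -0.78), where Myl9 gave -0.73. The summed marker level at day 7 was 8996 to 9595 CPM in AGHMT, 9612 to 9759 CPM in GHMT and 6397 to 6866 CPM in GMT, against 7326 to 7885 CPM in mock. Its part in the Myl9 values was not tested.

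Myl6 (chromosome 10, 128490860-128494145), the smooth and non-muscle essential chain, was expressed in every group. Its group means ran from 546 CPM in GMT at day 2 to 854 CPM in AGHMT at day 7. At day 7 it had 835, 892 and 835 CPM in AGHMT, 848, 872 and 817 CPM in GHMT and 685, 689 and 661 CPM in GMT, against 564, 584 and 545 CPM in mock. All cocktail libraries at day 7 were above the mock libraries, with log2 fold changes of 0.60 ± 0.08, 0.58 ± 0.08 and 0.27 ± 0.08 in AGHMT, GHMT and GMT (edgeR, adjusted p = 3.62e-07, 6.05e-07 and 0.00513). At day 2 only AGHMT (0.23 ± 0.08, adjusted p = 0.014) and GHMT (0.47 ± 0.08, adjusted p = 1.68e-05) were called, by edgeR. The AGHMT call rested on replicate 3 at 838 CPM, beside 603 and 585 CPM, and without it the log2 fold change was 0.05 (adjusted p = 0.339).

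The kinase Mylk (chromosome 16, 34745210-35002420), in GHMT, was called in opposite directions against mock at the 2 days. At day 7 it had 293, 301 and 289 CPM in AGHMT, 120, 108 and 118 CPM in GHMT and 61.6, 63.9 and 69.2 CPM in GMT, against 217, 228 and 221 CPM in mock. At day 2 it had 173, 184 and 160 CPM in AGHMT, 182, 198 and 175 CPM in GHMT and 68.4, 70.5 and 72.3 CPM in GMT, against 89.7, 97.0 and 95.6 CPM in mock. At day 7 only AGHMT was above mock, and at day 2 AGHMT and GHMT were. The log2 fold change of GHMT against mock was -0.94 ± 0.06 at day 7 and 0.98 ± 0.06 at day 2 (edgeR, adjusted p = 1.05e-13 and 7.71e-14), a difference of -1.92 ± 0.08 (adjusted p = 6.42e-16). GMT was lower than mock by -1.77 ± 0.06 at day 7 and -0.42 ± 0.06 at day 2 (edgeR, adjusted p = 4.14e-19 and 5.53e-07). AGHMT was higher by 0.41 ± 0.06 at day 7 and 0.87 ± 0.06 at day 2 (edgeR, adjusted p = 3.86e-07 and 5.36e-13). Mock itself moved most: at day 7 against day 2 Mylk rose by 1.24 ± 0.06 in mock (edgeR, adjusted p = 3.09e-15) and by 0.77 ± 0.06 in AGHMT (adjusted p = 1.48e-11), fell by 0.68 ± 0.06 in GHMT (adjusted p = 2.62e-10), and gave -0.12 ± 0.06 in GMT (adjusted p = 0.0972). Macrophage and fibroblast marker levels also differed between the mock groups of the 2 days, as given above, and their part in this change was not tested. Exons of Mylk overlap the antisense genes E130310I04Rik by 548 bp and Gm21691 by 224 bp, of 11263 bp of annotated exon.

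Mylk3 (chromosome 8, 85324303-85386345), the cardiac kinase, rose in every cocktail at both days. At day 7 it had 20.3, 20 and 20.7 CPM in AGHMT, 19.6, 20.3 and 16.6 CPM in GHMT and 15.8, 18.2 and 16.7 CPM in GMT, against 2.31, 2.02 and 2.09 CPM in mock. Its day 2 values were 7.50, 7.53 and 7.98 CPM in AGHMT, 8.66, 8.61 and 8.06 CPM in GHMT and 9.87, 10.6 and 9.05 CPM in GMT, against 0.700, 0.839 and 0.868 CPM in mock. All cocktail libraries stood above the mock libraries of their day. Log2 fold changes against mock were 3.24 ± 0.09, 3.14 ± 0.09 and 2.98 ± 0.09 in AGHMT, GHMT and GMT at day 7 and 3.25 ± 0.12, 3.39 ± 0.12 and 3.61 ± 0.12 at day 2 (edgeR, adjusted p at most 1.05e-17). AGHMT was not tested against GMT. Its libraries were all above those of GMT at day 7 (20 to 20.7 against 15.8 to 18.2 CPM) and all below them at day 2 (7.50 to 7.98 against 9.05 to 10.6 CPM). In GHMT against GMT and AGHMT against GHMT within a day, the only Mylk3 call was GHMT below GMT at day 2 (-0.22 ± 0.08, edgeR, adjusted p = 0.0271). The call was lost without GHMT replicate 3, GMT replicate 1 or GMT replicate 2 (-0.22 to -0.17, adjusted p = 0.0606 to 0.147). At day 7 that difference was 0.16 ± 0.07 (edgeR, adjusted p = 0.0814), and it was called without GHMT replicate 3 (0.24, adjusted p = 0.00731) or GMT replicate 2 (0.21, adjusted p = 0.0373).

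Per kilobase of annotated exon, Mylk stood above Mylk3 in every group at day 7. Mylk and Mylk3 stood at 26.1 ± 0.53 and 4.75 ± 0.07 CPM per kb in AGHMT at day 7, at 10.2 ± 0.60 and 4.39 ± 0.46 CPM per kb in GHMT, at 5.76 ± 0.34 and 3.95 ± 0.28 CPM per kb in GMT, and at 19.7 ± 0.52 and 0.499 ± 0.03 CPM per kb in mock. The other kinase genes were low. Mylk4, a kinase related to Mylk3, averaged 1.83 ± 0.33, 2.06 ± 0.23 and 2.80 ± 0.04 CPM in AGHMT, GHMT and GMT at day 7, against 0.131 ± 0.06 CPM in mock, and was called higher in each cocktail. Mylk2, the skeletal muscle kinase, averaged 1.57 ± 0.09, 1.91 ± 0.54 and 0.725 ± 0.08 CPM in the same groups, against 1.56 ± 0.07 CPM in mock, and was called lower in GMT alone (log2 fold change -1.10 ± 0.22, edgeR, adjusted p = 9.02e-05).

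Counted together, at day 7 against mock 8 members were called higher and 0 lower in AGHMT, 8 and 1 in GHMT, and 7 and 2 in GMT. At day 2 the counts were 8 and 0, 9 and 0, and 7 and 2. The share of all tested genes called in either direction was 76.8% for AGHMT, 72% for GHMT and 73% for GMT at day 7 and 75.4%, 68.2% and 67.1% at day 2, so a count of 8 or 9 of 10 members stands near the background. Among all genes, 38.6% were called higher and 38.1% lower in AGHMT at day 7, 36.3% and 35.6% in GHMT, and 37.1% and 36% in GMT. At day 2 the shares were 38% and 37.4% in AGHMT, 34.9% and 33.3% in GHMT, and 33.9% and 33.1% in GMT. The median log2 fold change of the 10 members at day 7 was 1.26 in AGHMT, 1.4 in GHMT and 1.77 in GMT, beside 0.00, 0.00 and 0.01 over all genes. These comparisons share their mock libraries.

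**Figure D2:**
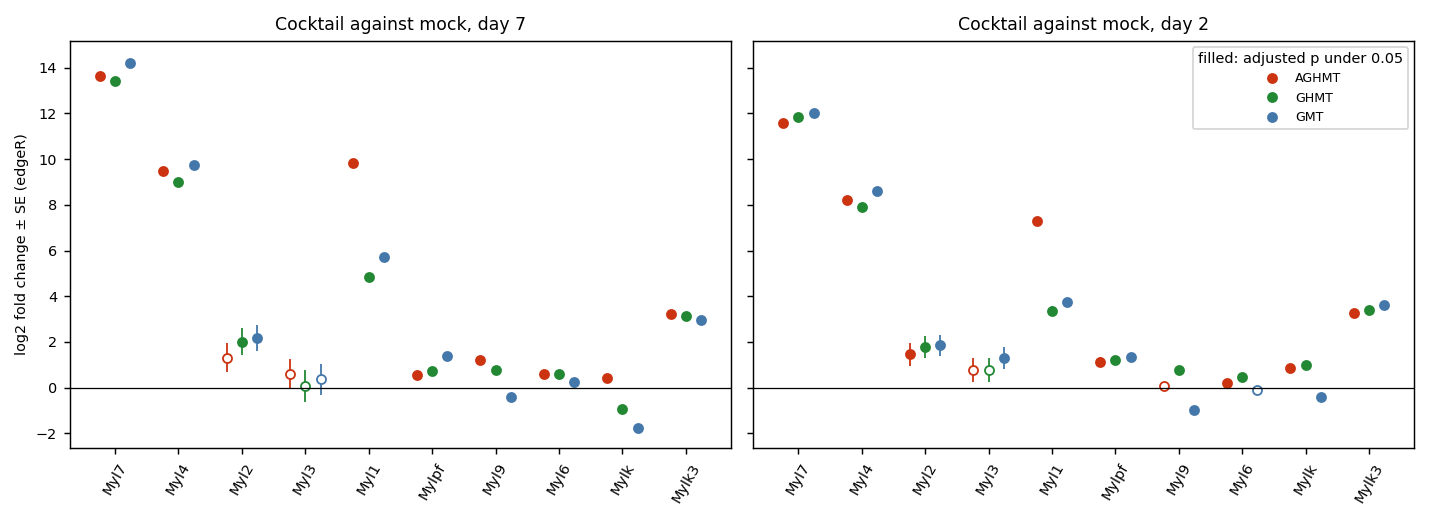
Log2 fold change (± SE, edgeR) of each member in AGHMT, GHMT and GMT against mock at day 7 (left) and day 2 (right), filled where the adjusted p is under 0.05. Myl7 lies highest in each cocktail at both days, Myl1 lies at 9.84 in AGHMT at day 7, above Myl4 at 9.48, and Myl9 and Mylk are the members with values below 0 that were called.

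Between cocktails the smooth muscle members went opposite to the atrial ones in GHMT against GMT. There 3 members were called higher and 4 lower at day 7 and 3 and 3 at day 2. Of all genes 37.5% were called at day 7, 18.7% higher and 18.8% lower, and 44.8% at day 2, 23.1% higher and 21.7% lower. Myl9, Myl6 and Mylk made up the higher calls at either day. Mylk rose by 0.83 ± 0.06 at day 7 and 1.4 ± 0.06 at day 2 (edgeR, adjusted p = 1.03e-11 and 2.83e-16), and Myl6 by 0.32 ± 0.08 and 0.55 ± 0.08 (adjusted p = 0.00266 and 4.02e-06). The lower calls were Myl7, Myl4, Myl1 and Mylpf at day 7 and Myl4, Myl1 and Mylk3 at day 2. In AGHMT against GHMT, 5 were called higher and 0 lower at day 7, namely Myl1, Mylk, Myl4, Myl9 and Myl7, and 2 higher and 3 lower at day 2. Of all genes 48.7% were called at day 7, 25% higher and 23.6% lower, and 52.7% at day 2, 25.7% higher and 27% lower. Mylk differed by 1.35 ± 0.06 at day 7 (edgeR, adjusted p = 6.65e-16) and -0.11 ± 0.06 at day 2 (adjusted p = 0.118), which was called without AGHMT replicate 2 (-0.15, adjusted p = 0.0338). The day 2 lower calls were Myl9, Myl7 and Myl6, and the Myl6 call (-0.24 ± 0.08, edgeR, adjusted p = 0.0155) was lost without AGHMT replicate 1, AGHMT replicate 2 or GHMT replicate 3 (-0.21 to -0.14, adjusted p = 0.0649 to 0.136). GHMT libraries enter both comparisons.

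**Figure D3:**
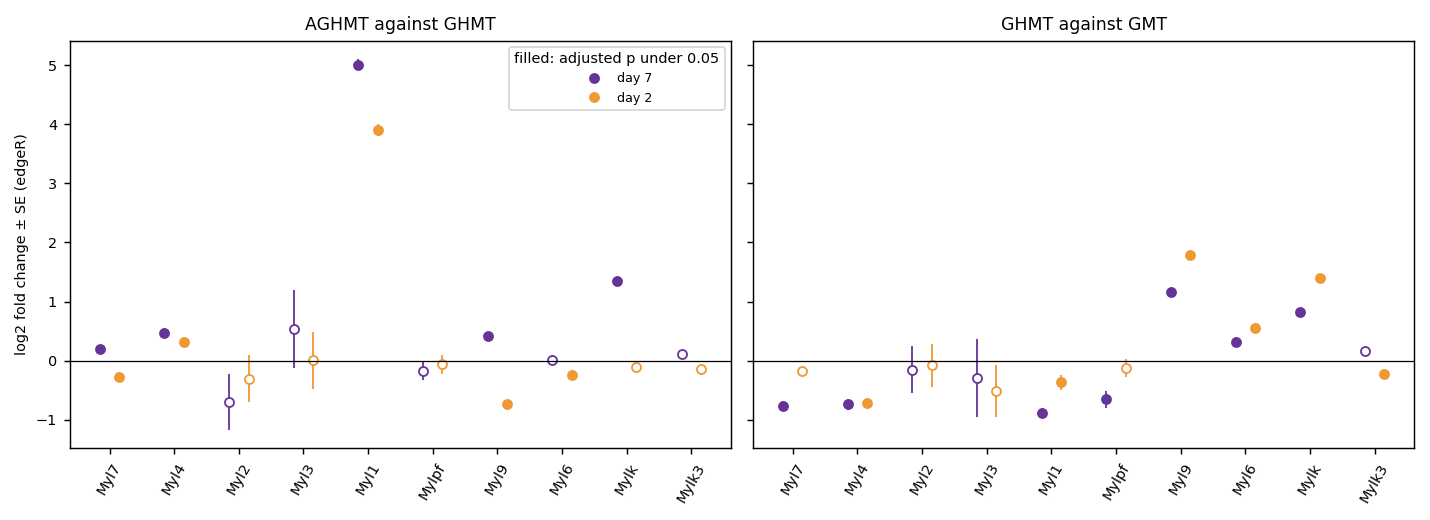
Log2 fold change (± SE, edgeR) of each member in AGHMT against GHMT (left) and GHMT against GMT (right) at day 7 and day 2, filled where the adjusted p is under 0.05. Myl1 stands at 5.01 and 3.90 in AGHMT against GHMT, and Myl9, Myl6 and Mylk are above 0 while Myl4 and Myl1 are below 0 in GHMT against GMT at either day.

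Between day 7 and day 2, 7 members were called higher and 0 lower in AGHMT, 4 and 1 in GHMT, 7 and 1 in GMT and 3 and 0 in mock. Of all genes 54.5% were called in AGHMT (29.5% higher, 24.9% lower), 50.2% in GHMT (25.6%, 24.6%), 51.9% in GMT (27.5%, 24.4%) and 55.5% in mock (29.7%, 25.8%). Myl4 rose in all groups, by 1.74 ± 0.09 in AGHMT, 1.59 ± 0.09 in GHMT, 1.6 ± 0.09 in GMT and 0.47 ± 0.18 in mock (edgeR, adjusted p = 4.69e-14, 4.08e-13, 3.63e-13 and 0.034). The mock call was lost without mock replicate 1 or 3 at day 2, or 1 or 2 at day 7 (0.33 to 0.50, adjusted p = 0.0505 to 0.169). Myl1 rose by 3.26 ± 0.08, 2.15 ± 0.11 and 2.68 ± 0.10 in AGHMT, GHMT and GMT (edgeR, adjusted p = 3.7e-20, 3.57e-14 and 7.62e-17). Myl9 rose in AGHMT (1.2 ± 0.06, edgeR, adjusted p = 3.32e-14) and GMT (0.66 ± 0.06, adjusted p = 3.92e-09) and gave 0.04 ± 0.06 in GHMT. Mylpf rose in GMT alone (0.38 ± 0.14, edgeR, adjusted p = 0.0265), a call lost without GMT replicate 2 or 3 at day 2 or replicate 3 at day 7 (0.29 to 0.39, adjusted p = 0.0521 to 0.132). Myl3 fell in GMT (-1.50 ± 0.50, adjusted p = 0.014), a call lost without GMT replicate 3 at day 2 or replicate 1 or 3 at day 7 (-1.36 to -0.96, adjusted p = 0.0538 to 0.0744).

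The fold changes themselves differed between the days for several members. Against mock, 5 members had a larger value at day 7 than at day 2 and 1 a smaller one in AGHMT, 3 and 1 in GHMT, and 5 and 2 in GMT, by edgeR's test of the difference. Of all genes 50.9% were called in this way in AGHMT (24.8% higher, 26.1% lower), 49.3% in GHMT (23.3%, 26%) and 49.5% in GMT (24.3%, 25.3%). For AGHMT against GHMT the count was 4 and 0, with 22.3% of all genes called (13.3%, 9.05%). For GHMT against GMT it was 1 and 4, with 16.6% called (7.58%, 9.06%).

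To set the forms against each other, levels were taken per kilobase of annotated exon and summed over regulatory and essential chains, including Myl12a, Myl12b, Myl10 and Myl6b. Of the regulatory pool at day 7, Myl7 made up 63.4% ± 0.90 in AGHMT, 63.2% ± 0.43 in GHMT and 82.7% ± 0.52 in GMT, against 0.0254% ± 0.0072 in mock. Myl9 made up 31.0% ± 0.89, 26.3% ± 0.48 and 9.04% ± 0.27 in those groups, against 70.2% ± 0.84 in mock. Myl2 and Mylpf were each below 0.3% in every group. The regulatory pool as a whole was 2869 ± 110 CPM per kb in AGHMT, 2522 ± 130 CPM per kb in GHMT and 3264 ± 39.1 CPM per kb in GMT, against 549.97 ± 33.2 CPM per kb in mock. By the principal transcript, which is shorter for Myl12a (1937 against 3360 bp) and Myl12b (2143 against 2770 bp), the pool was larger. It was then 3005 ± 115, 2719 ± 141 and 3445 ± 47.8 CPM per kb, against 671 ± 38.1 CPM per kb in mock. The regulatory shares given here hold for the exon union alone.

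In the essential pool at day 7, Myl4 made up 44.5% ± 1.4 in AGHMT, 56.7% ± 0.41 in GHMT and 72.1% ± 0.45 in GMT, against 0.388% ± 0.033 in mock. Myl1 made up 31.6% ± 1.1, 1.74% ± 0.25 and 2.45% ± 0.11, against 0.212% ± 0.026 in mock. Myl6 made up 23.7% ± 0.55, 41.4% ± 0.45 and 25.3% ± 0.51, against 97.7% ± 0.038 in mock. The exon union is longer than the principal transcript for Myl4 (4637 and 900 bp), Myl6 (3187 and 665 bp) and, less so, Myl1 (2074 and 803 bp). A longer length lowers the level per kilobase, and so the exon union lowers Myl4 and Myl6 more than Myl1. By the principal transcript, Myl4 was 54.0% ± 1.36, 59.0% ± 0.40 and 74.4% ± 0.46 in AGHMT, GHMT and GMT, against 0.422% ± 0.036 in mock, and Myl1 was 19.2% ± 0.78, 0.906% ± 0.13 and 1.27% ± 0.056, against 0.116% ± 0.014 in mock. The order of the groups for Myl4 and Myl1 was thus the same by either length. For Myl6, AGHMT lay below GMT by the exon union and above it by the principal transcript. Within AGHMT, Myl1 lay above Myl6 by the exon union and below it by the principal transcript. The sizes of the shares depend on the transcripts in use.

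**Figure D4:**
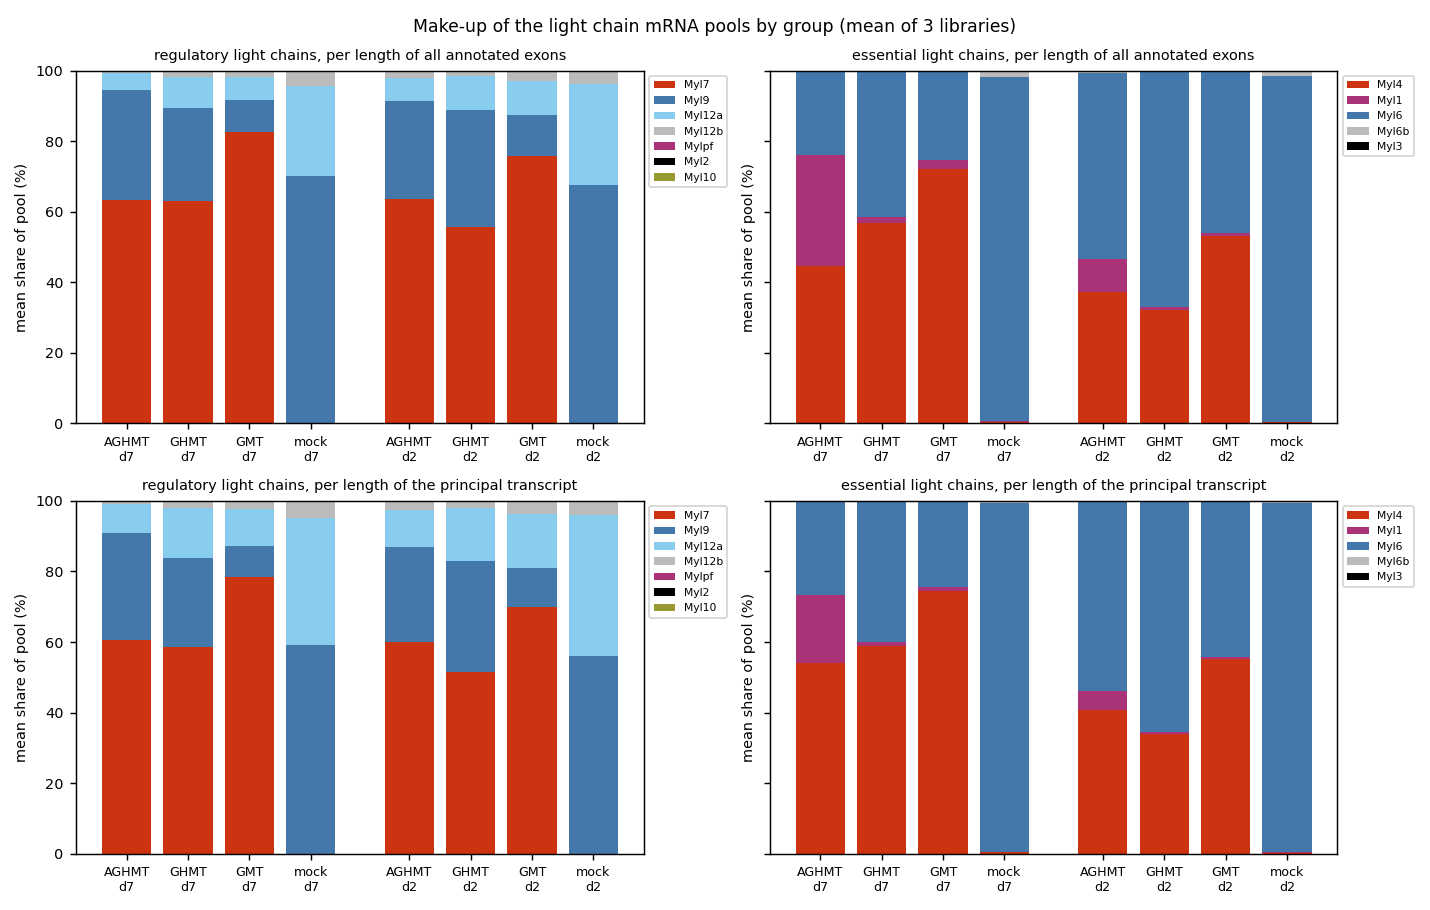
Mean share (%) of each gene in the regulatory (left) and essential (right) light chain pools per group of 3 libraries, at day 7 then day 2, per length of all annotated exons (top) and of the principal transcript (bottom). Myl7 holds at least 55.8% of the regulatory pool in every cocktail group at the exon length and Myl1 31.6% of the essential pool in AGHMT at day 7 at that length.

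Of 6 other light chain and kinase genes, 5 were tested, and Myl10 was at most 0.0406 CPM on average in any group. The non-muscle regulatory chains Myl12a and Myl12b lie next to each other on chromosome 17 and are close copies, so their counts are uncertain. At day 7 Myl12a was called higher in GHMT (0.68 ± 0.06) and GMT (0.60 ± 0.06, edgeR, adjusted p = 2.41e-10 and 2.43e-09) and gave 0.00 ± 0.06 in AGHMT (adjusted p = 0.958). Myl12b was lower in AGHMT (-0.29 ± 0.06, adjusted p = 0.000152) and higher in GHMT (0.78 ± 0.06) and GMT (1.23 ± 0.06, edgeR, adjusted p = 1.52e-11 and 1.3e-15). Myl6b, an essential chain of slow skeletal and non-muscle cells, fell in all 3 cocktails, by 1.23 ± 0.10, 1.55 ± 0.10 and 1.41 ± 0.10 in AGHMT, GHMT and GMT (edgeR, adjusted p = 2.38e-11, 5.29e-13 and 1.93e-12).

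Subunits of the light chain phosphatase act against the kinases, while inhibitors of that phosphatase favour phosphorylation. Of 7 genes for such subunits and inhibitors, all tested, 4 were called higher and 1 lower in AGHMT against mock at day 7, 4 and 1 in GHMT and 5 and 0 in GMT, with median log2 fold changes of 1.04, 0.35 and 0.28. Of all genes 76.8%, 72% and 73% were called in either direction, so these counts stand near the background. The counts and medians pool genes of opposite effect on phosphorylation. Ppp1r14b, another inhibitor of the phosphatase, was the gene called lower, by -0.86 ± 0.08 in AGHMT and -0.37 ± 0.08 in GHMT as log2 fold changes (edgeR, adjusted p = 2.5e-10 and 0.000111), with -0.12 ± 0.07 in GMT (adjusted p = 0.171). Ppp1r14c, an inhibitor of the phosphatase, averaged 271 ± 12.6 CPM in AGHMT, 254 ± 15.2 CPM in GHMT and 73.1 ± 4.78 CPM in GMT, against 0.284 ± 0.026 CPM in mock. Ppp1r12b, the muscle targeting subunit, averaged 306 ± 5.38, 121 ± 8.67 and 222 ± 3.40 CPM in AGHMT, GHMT and GMT, against 58.6 ± 2.24 CPM in mock. Ppp1r14a, the smooth muscle inhibitor of the phosphatase, rose by 2.23 ± 0.11 in AGHMT, 2.28 ± 0.11 in GHMT and 0.45 ± 0.12 in GMT against mock, as log2 fold changes with their SE (edgeR, adjusted p = 3.18e-15, 2.23e-15 and 0.00196).

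Among 12 heavy chain genes that the light chains serve, Myh6, the atrial and adult mouse cardiac heavy chain, averaged 4610 ± 176 CPM in AGHMT, 887 ± 81.9 CPM in GHMT and 254 ± 10.6 CPM in GMT, against 0.681 ± 0.32 CPM in mock at day 7. In GHMT against GMT at day 7 Myh6 rose by 1.81 ± 0.08 (edgeR, adjusted p = 4.31e-15), where the log2 difference of Myl7 was -0.76. Myh14, a non-muscle heavy chain, averaged 8.14 ± 0.29, 3.45 ± 0.45 and 6.17 ± 0.67 CPM in AGHMT, GHMT and GMT, against 0.242 ± 0.098 CPM in mock. Of the 11 tested genes, 6 rose and 3 fell against mock in AGHMT, 5 and 3 in GHMT and 5 and 4 in GMT.

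The genes most like each member over the 8 group means were sought by Pearson correlation of log2 CPM. The search covered 11575 tested genes of at least 5 CPM in their highest group. Members were left out of it, so no member could be matched to another. The closest to Myl7 were Srpk3, Casz1 and Smpx (r = 0.995, 0.995 and 0.995), and to Myl4 Fam212b, Ttn, the giant sarcomere spring, and Des, the muscle intermediate filament (0.996, 0.994 and 0.994). Nearest to Mylk3 were Cryab, Gpx3 and Tdrp (0.996, 0.996 and 0.995), and to Myl1 Vdac1, the mitochondrial outer membrane channel, Serhl and Uqcr10, a respiratory chain subunit (0.992, 0.991 and 0.991). Myl9 was most like Myh11, Rbm18 and Syde2 (0.971, 0.969 and 0.961). Mylk had Zfp597, Mtmr6 and Mrps17 (0.963, 0.957 and 0.948), and Myl6 had Pak2, Snap23 and Il6 (0.977, 0.968 and 0.964). The low genes matched Sirt7, Espn and Enthd2 (Myl2, 0.992 to 0.979), Tmed8, Smpdl3b and Evpl (Myl3, 0.955 to 0.946), and Mrm1, Mgrn1 and Urm1 (Mylpf, 0.981 to 0.978). These are descriptions over 8 points that share the cocktails and days.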

How the data were processed

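RNA of 24 libraries in 8 groups was sequenced. The authors deposited raw counts per gene for 47967 genes, and a log2 table which, by its values, equals log2 CPM with a floor at 0 to within 0.00603; the log2 table was used for that check alone. Per the submitters' processing notes, the tools include featureCounts 1.4.6, HISAT2 2.0.1, DESeq2 1.6.3 and Trim Galore 0.4.1, with the builds GRCm38 and mm10. The strand setting is not given in the sources used here.

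The counts were tested as deposited with edgeR 4.0.16 (R 4.3.3, limma 3.58.1), using TMM factors, a filter on low counts that left 17576 genes, 1 coefficient per group and quasi-likelihood tests, with Benjamini-Hochberg adjustment over all tested genes. The 8 groups shared 16 residual degrees of freedom. In data simulated on AGHMT and mock at day 7 alone, the procedure recovered 31, 43, 48 and 50 of 50 genes changed 1.2, 1.5, 2 and 4 times. Genes with counts as low as those of Myl2 and Myl3 were not among the genes changed, so the recovery does not cover them or the fit of all 8 groups. Library totals are in the report, and intervals (95%) and the floor of 3 counts cover counting error only. Lengths come from GENCODE annotation of GRCm38 and promoters from RefSeq. DESeq2 1.42.0, other scalings, no filter, fits of the compared groups alone, leaving out libraries and a replicate block were alternatives. A fit without the 3 libraries furthest from their groups and the principal transcript length were added after seeing the data. Same-numbered libraries mostly did not deviate together, so no pairing was used. The pair over a correlation of 0.1 was replicate 3 of GHMT and AGHMT at day 2 (r = 0.274).

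All 10 members and the 5 cocktail genes are named, with up to 4 genes of each other list by smallest adjusted p in a comparison, list genes at 0 counts, and the 3 genes most like each member, leaving out unnamed gene models. The members and lists were chosen with earlier results of these data known. Of 1 list of genes acting on light chain phosphorylation, the phosphatase subunits and inhibitors were counted apart with their values known, and some results of the others are not reported here.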

Additional observations from a re-analysis of the deposited data

Results flagged for a closer look

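Each value here is the log2 fold change at day 7 minus that at day 2, singled out because edgeR's test of the difference between the days gave an adjusted p under 0.05. Comparisons with mock share the mock libraries.

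Against mock, Myl7 differed by 2.07 in AGHMT, 1.6 in GHMT and 2.18 in GMT, and Myl4 by 1.27, 1.12 and 1.13 in those cocktails. The GHMT value of Myl7 (edgeR, adjusted p = 0.0434) lost its call without any one of mock replicates 1, 2 and 3 at either day, GHMT replicate 2 at day 7 or GHMT replicates 1 and 2 at day 2 (1.41 to 1.71, adjusted p = 0.0504 to 0.11). From day 2 to day 7 Myl7 itself rose by 1.02 in AGHMT, 0.55 in GHMT and 1.14 in GMT. Its summed mock counts went from 18 to 8, so a change near the floor enters each Myl7 value against mock. Myl1 differed by 2.57, 1.47 and 2.00 in AGHMT, GHMT and GMT. Mylk went the other way, by -0.46, -1.92 and -1.35. Myl9 differed by 1.15 in AGHMT and 0.60 in GMT, Myl6 by 0.37 in AGHMT and 0.35 in GMT, and Mylk3 by -0.63 in GMT. Mylk3 itself rose from day 2 to day 7 in both groups, by 0.78 in GMT and by 1.41 in mock.

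In AGHMT against GHMT the difference was 1.46 for Mylk, 1.16 for Myl9, 1.10 for Myl1 and 0.46 for Myl7. In GHMT against GMT it was -0.57 for Mylk, -0.58 for Myl7, -0.53 for Myl1, -0.61 for Myl9 and 0.38 for Mylk3. In this last comparison Myl1 lost its call without GHMT replicate 2 at day 2 (-0.50, edgeR, adjusted p = 0.0575), and Mylk3 without GMT replicate 2 at day 2 (0.32, adjusted p = 0.0575).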

How the results depend on the processing

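Of 138 log2 fold changes of members that were recomputed, 124 were called, and 0 of these changed sign under the alternatives run. Values that were not called did: leaving out 1 library moved Myl3 between -0.81 and 1.45 in GMT and between -0.37 and 1.16 in GHMT against mock at day 7, Myl6 between -0.020 and 0.035 in AGHMT against GHMT at day 7, and Myl9 between -0.029 and 0.11 in AGHMT against mock at day 2, which was -0.016 without the 3 furthest libraries. With 1 library left out, members called lower ranged from 1 to 3 in GHMT against GMT at day 2, and those called higher from 1 to 2 and lower from 2 to 3 in AGHMT against GHMT at day 2, which was 1 and 1 with only the compared groups fitted. Lower calls between day 7 and day 2 ranged from 0 to 1 in GMT, and were 2 by library totals, with the compared groups alone or without the 3 furthest libraries, and from 0 to 1 in AGHMT. For the difference between days, lower calls ranged from 1 to 2 in GHMT and in AGHMT against mock, the AGHMT count being 2 with no filter, and higher calls from 0 to 1 in GHMT against GMT. The log2 ratio of Myl7 to Myl2 ranged from -0.35 to 0.17 in GHMT against GMT and from -0.15 to 0.23 in AGHMT against GHMT at day 2, the second being -0.0088 with a pseudocount of 5, and Myl4 to Myl3 from -0.15 to 0.17 in AGHMT against GHMT at day 7. The cause was not tested. Myl7 in GHMT against GMT at day 2 was called by RLE factors (-0.18, adjusted p = 0.0494), library totals (-0.30, 0.00256), no filter (-0.20, 0.000705), the compared groups alone (-0.18, 0.00033) and without the 3 furthest libraries (-0.20, 0.00017). Same-numbered libraries had a median correlation of 0.0017, with 1 of 84 pairs over 0.1, so the numbers were not taken as pairing. That pair was replicate 3 of GHMT and AGHMT at day 2 (0.274), whose replicates 1 and 2 gave 0.094 and 0.072. The replicate block gave 2 lower calls in place of 1 for AGHMT against mock between days and moved no other count of calls by over 1.5 times. Depth limits Myl2 and Myl3, at 0 to 23 counts a library.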
